A study of Homo sapiens with 4 samples.

Results

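The vacuolar proton ATPase (V-ATPase) subunits described here are the genes ATP6V0A1, ATP6V0B, ATP6V0C, ATP6V0D1, ATP6V1A, ATP6V1B2, ATP6V1C1, ATP6V1E1, ATP6V1H and ATP6AP1, chosen by gene symbol. Of these 10 members, 9 had a row among the 18885 genes of the table, and ATP6V0A1 was not analysed here. All libraries were made from MV4-11, a human line of acute myeloid leukemia, 2 from control cells (NC) and 2 from cells with a hairpin against ANP32B (sh-ANP32B). The labels give NC cells no shRNA, while the study describes a control hairpin (sh-NC) and puromycin selection of stably transduced cells. An effect of transduction therefore cannot be told apart from loss of ANP32B if NC cells carried no hairpin. The columns of the knockdown libraries are marked S3, and the study numbers its hairpins against ANP32B. If S3 marks a single hairpin, its off-target effects cannot be told apart from loss of ANP32B. Nothing in the labels says whether the libraries of a group came from separate cultures, so the p-values measure only the spread between these libraries.

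The V-ATPase is a rotary pump in the membranes of lysosomes, endosomes and secretory granules. Its cytosolic V1 sector hydrolyses ATP and turns a central shaft, and its membrane-embedded V0 sector carries protons into the organelle. In myeloid cells the pump acidifies lysosomes and maturing phagosomes, and it is also part of the machinery by which the lysosome senses nutrients.

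The deposited values are TPM, a measure of transcript abundance that relates read density to gene length and is scaled to nearly the same total in each library. Since TPM keep no read numbers, the depth of the libraries is unknown. ANP32B, the targeted gene, had 358 and 364 TPM in NC and 54.1 and 49.3 TPM in sh-ANP32B (log2 fold change -2.78, SE 0.0558, adjusted p = 2.89e-05, where SE is the standard error). All log2 fold changes are of TPM + 1, sh-ANP32B against NC, and all adjusted p-values come from limma with Benjamini-Hochberg adjustment over the 16937 genes tested. The call required an adjusted p below 0.05 together with a log2 difference of over 0.5, upward or downward, and was met by 17.9% of all genes as higher and 10.1% as lower. Of 7 myeloid and AML markers listed, 6 had a row, and MPO had none. Of the 6, 2 were called higher and 1 lower, against 17.9% and 10.1% of all genes. PTPRC, CD33 and SPI1 had positive log2 fold changes, with CD33 the lowest of them at 52.8 to 72.6 TPM. The values of HOXA9 (-0.07), FLT3 (-0.15, at 5.52 to 6.30 TPM) and MEIS1 (-0.61, adjusted p = 0.00138, called lower) were negative. None of the 10 T cell, erythroid, epithelial and fibroblast markers had a row.

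After ANP32B knockdown, 3 of the 9 members were called higher and none lower, against 17.9% and 10.1% of all genes. The 3 were ATP6V0D1, ATP6V1C1 and ATP6V1A. ATP6V0B, ATP6V1B2 and ATP6V1H were also higher at an adjusted p below 0.05, but inside the fold limit, so 6 of 9 members passed that p in the upward direction, beside 26.0% of all genes (19.7% passed it downward, and no member did). In 8 of the 9 members both sh-ANP32B libraries lay above both NC libraries, an order that 42.5% of all genes showed. ATP6V1E1 was the member whose groups overlapped. The median log2 fold change of the 9 members was 0.44, and that of all genes tested was 0.08. The number of members called higher depended on how the libraries were scaled, with 1 called after median-of-ratios scaling and 5 after quantile normalization. Of the 16937 genes tested, 2430 were called higher after median-of-ratios scaling and 2208 after quantile normalization, against 3024 on the TPM as deposited. These scalings moved the median of all genes by -0.08 and -0.12, and the members' median stood above that of all genes by 0.36 on the TPM as deposited, by 0.35 and by 0.54. Over all genes, 63.9% of the calls were upward on the TPM as deposited, 51.1% after median-of-ratios scaling and 49.8% after quantile normalization.

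**Figure D1:**
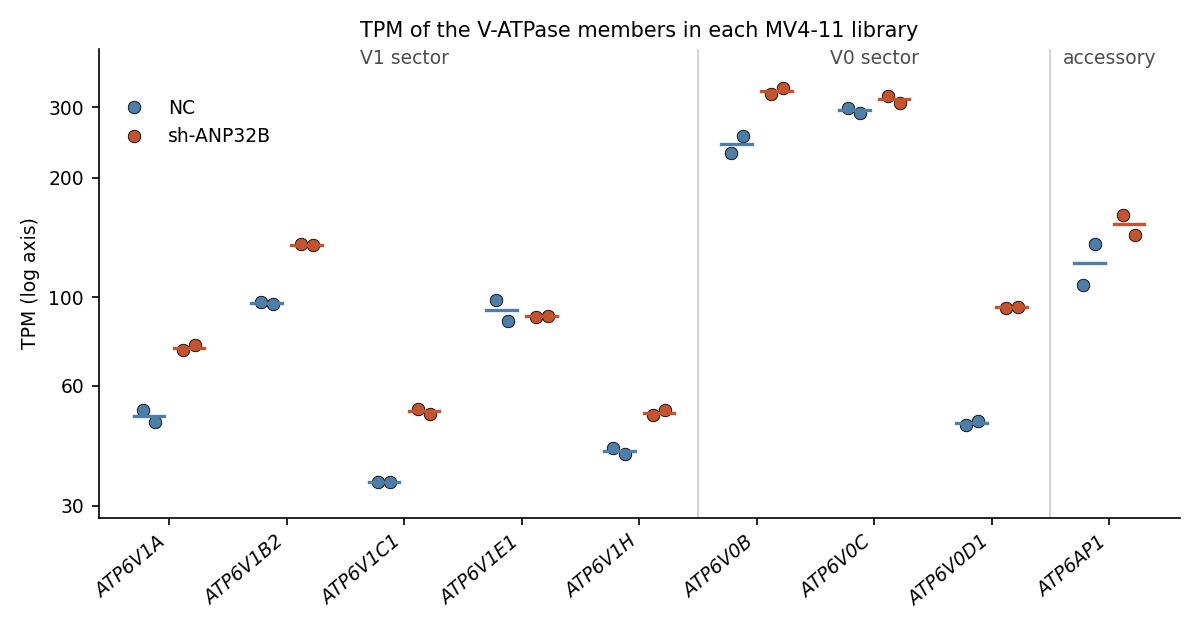
TPM (log axis) of the 9 V-ATPase members in each library, with points for the 2 NC and 2 sh-ANP32B libraries and a bar at each group mean, ordered by sector. ATP6V0D1 went from below 50 to above 94 TPM, while the groups of ATP6V1E1 overlapped and those of ATP6V0C nearly met.

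ATP6V0D1 encodes the d subunit, which couples the rotating shaft of V1 to the proton-carrying ring of V0. It had 47.8 and 49.1 TPM in NC and 94.3 and 94.5 TPM in sh-ANP32B, so the groups stood far apart against a difference within groups of less than 2 TPM. Its mean in sh-ANP32B was 195% of that in NC, with a log2 fold change of 0.95 (SE 0.0481, adjusted p = 0.000162). This was the largest fold change among the 9 members, and it lay between 0.85 and 0.97 under every alternative fit. ATP6V0D1 (ENSG00000159720) is on chromosome 16 (hg38, 67438014 to 67481181, minus strand), and no other annotated gene shares its exons.

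The proteolipid members form the rotating ring of V0, whose acidic residues bind the protons in transit. ATP6V0C, the c subunit, was the highest member in NC, with 299 and 291 TPM there and 321 and 308 TPM in sh-ANP32B. The groups did not overlap, but the difference was small and did not pass the test (log2 fold change 0.09, 95% interval -0.01 to 0.19, adjusted p = 0.121). After median-of-ratios scaling its log2 fold change was -0.01. Of its 1416 exonic bases, 862 are shared with 1 gene annotated on the same strand and 218 with another, and neither had a row here. In addition, 4 pseudogenes carry its name, so reads of ATP6V0C could have been split. ATP6V0B, the related c'' subunit, had 230 and 255 TPM in NC and 324 and 335 TPM in sh-ANP32B. Its log2 fold change was 0.44 (SE 0.0583, adjusted p = 0.00243), inside the fold limit, and it passed that limit after quantile normalization and without NC replicate 2 (0.52). The ratio of ATP6V0B to ATP6V0C within a library was 0.768 and 0.877 in NC and 1.01 and 1.09 in sh-ANP32B. ATP6V0C was thus above ATP6V0B in both NC libraries and below it in both sh-ANP32B libraries, but narrowly in replicate 1 (321 against 324 TPM). That gap was smaller than the spread of either gene in sh-ANP32B (SD 8.99 TPM for ATP6V0C and 8.36 TPM for ATP6V0B, n = 2). Since reads of ATP6V0C could have been split, its level against that of ATP6V0B is also uncertain.

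ATP6V1A and ATP6V1B2 encode the subunits that alternate in the ATP-hydrolysing head of V1, where A holds the catalytic site and B a regulatory one. ATP6V1A had 52.3 and 48.6 TPM in NC and 73.7 and 75.8 TPM in sh-ANP32B. The sh-ANP32B mean was 148% of the NC mean, with a log2 fold change of 0.56 (SE 0.0585, adjusted p = 0.00111). ATP6V1B2 had 97.4 and 96.1 TPM in NC against 136 and 135 TPM in sh-ANP32B. These groups were tight and well separated, and the log2 fold change of 0.48 (SE 0.0410, adjusted p = 0.000565) fell just inside the limit. ATP6V1A and ATP6V1B2 stood in nearly the same proportion in all libraries, with a ratio of 0.536 and 0.506 in NC and 0.542 and 0.561 in sh-ANP32B. After median-of-ratios scaling ATP6V1A was no longer called, with a log2 fold change of 0.46. Its exons share 256 bases with a long non-coding RNA on the opposite strand.

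ATP6V1C1 encodes the C subunit, which clamps the peripheral stalks to V0 and leaves the complex when V1 detaches. It was the lowest member in NC, with 34.5 and 34.4 TPM, and had 52.6 and 51.0 TPM in sh-ANP32B. Its log2 fold change was 0.58 (SE 0.0561, adjusted p = 0.000867), and 0.48 after median-of-ratios scaling, where it was not called. ATP6V1H, the H subunit, keeps detached V1 from wasting ATP. It had 41.9 and 40.4 TPM in NC and 50.6 and 52.2 TPM in sh-ANP32B, a difference larger than the spread between replicates but inside the fold limit (log2 fold change 0.31, adjusted p = 0.00756).

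ATP6V1E1 encodes the E subunit of the peripheral stalks, which hold the head still against the turning shaft. It had 98.7 and 87.1 TPM in NC and 89.4 and 90.0 TPM in sh-ANP32B, with both knockdown values between the NC values. Its log2 fold change was -0.05 (95% interval -0.22 to 0.12, adjusted p = 0.614), and without NC replicate 1 it was 0.04. The annotation names 3 pseudogenes of ATP6V1E1. The ratio of ATP6V0D1 to ATP6V1E1 was 0.484 and 0.563 in NC and 1.05 in both sh-ANP32B libraries.

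ATP6AP1 encodes an accessory glycoprotein (Ac45) that helps V0 to assemble in the endoplasmic reticulum. It had 108 and 136 TPM in NC and 161 and 144 TPM in sh-ANP32B. The groups did not overlap, but the NC libraries stood far apart from each other, and the log2 fold change of 0.33 (95% interval 0.03 to 0.63) had an adjusted p = 0.0709. It was 0.16 without NC replicate 1 and 0.50 without NC replicate 2.

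By mean TPM in NC, the members ran from ATP6V0C through ATP6V0B, ATP6AP1, ATP6V1B2, ATP6V1E1, ATP6V1A, ATP6V0D1 and ATP6V1H down to ATP6V1C1. The NC libraries of ATP6V1B2 and ATP6V1E1 overlapped, as did those of ATP6V1A and ATP6V0D1, so these neighbours did not differ beyond their spread. All 9 members were well expressed, from percentile 70.9 (ATP6V1C1) to percentile 97.5 (ATP6V0C) of the genes tested.

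The remaining subunits of the pump were taken as a list of 16 genes, of which 11 had a row. Of these 11, 5 were called higher and none lower, against 17.9% and 10.1% of all genes. Their median log2 fold change was 0.46, and that of all genes tested was 0.08. TCIRG1 encodes the a3 form of the a subunit, which holds the proton path and is the form of lysosomes and of the osteoclast's bone-facing membrane. It was the highest subunit with a row in both groups, with 356 and 373 TPM in NC and 615 and 609 TPM in sh-ANP32B (log2 fold change 0.75, SE 0.0386, adjusted p = 0.000167). TCIRG1 shares 155 exonic bases with a long non-coding RNA on the same strand, ENSG00000255031, which had 13.5 and 10.9 TPM in NC and 30.5 and 29.4 TPM in sh-ANP32B. ATP6V0A2, the a2 form found mainly in the Golgi, had 18.5 and 20.5 TPM in NC and 21.1 and 21.5 TPM in sh-ANP32B (log2 fold change 0.12, 95% interval -0.09 to 0.34, adjusted p = 0.281). It was 0.05 without NC replicate 1, 0.20 without NC replicate 2 and 0.03 after median-of-ratios scaling.

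ATP6V0E1, a small V0 subunit, rose from 80.5 and 74.0 TPM to 133 and 140 TPM (log2 fold change 0.82, adjusted p = 0.000359). The annotation names 4 pseudogenes of ATP6V0E1, with which its reads could have been split. The rotor subunits of V1 also rose, ATP6V1D from 30.5 and 28.3 TPM to 47.6 and 49.9 TPM (log2 fold change 0.71, adjusted p = 0.000814). ATP6V1D shares 98 exonic bases with PALS1 and ATP6V1F shares 157 with KCP, both on the opposite strand. ATP6V1F rose from 142 and 159 TPM to 230 and 226 TPM (log2 fold change 0.60, adjusted p = 0.00113). ATP6AP2, the prorenin receptor and second accessory subunit, rose from 105 and 104 TPM to 152 and 150 TPM (log2 fold change 0.53, adjusted p = 0.000423), and it was not called after median-of-ratios scaling (0.43).

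The other 6 of these subunits were not called. ATP6V1G1, the partner of E in the peripheral stalks, for which 7 pseudogenes are named, had 109 and 103 TPM in NC and 149 and 143 TPM in sh-ANP32B, a log2 fold change of 0.46 (adjusted p = 0.00139) inside the fold limit. RNASEK is a V0 subunit that shares 661 exonic bases with RNASEK-C17orf49 and 38 with C17orf49, both on the same strand. It had 264 and 241 TPM in NC against 309 and 364 TPM in sh-ANP32B (log2 fold change 0.41, adjusted p = 0.0132). The minor forms ATP6V1E2 (log2 fold change -0.26, adjusted p = 0.0536), ATP6V1C2 (-0.26, adjusted p = 0.637) and ATP6V0E2 (0.29, adjusted p = 0.0629) did not pass the test. The value of ATP6V0E2 was 0.17 without sh-ANP32B replicate 2 and 0.41 without sh-ANP32B replicate 1, inside the fold limit in both cases. ATP6V1C2 had under 5 TPM in every library and shares 1033 exonic bases with PDIA6 on the opposite strand, which was at 374 to 381 TPM.

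**Figure D2:**
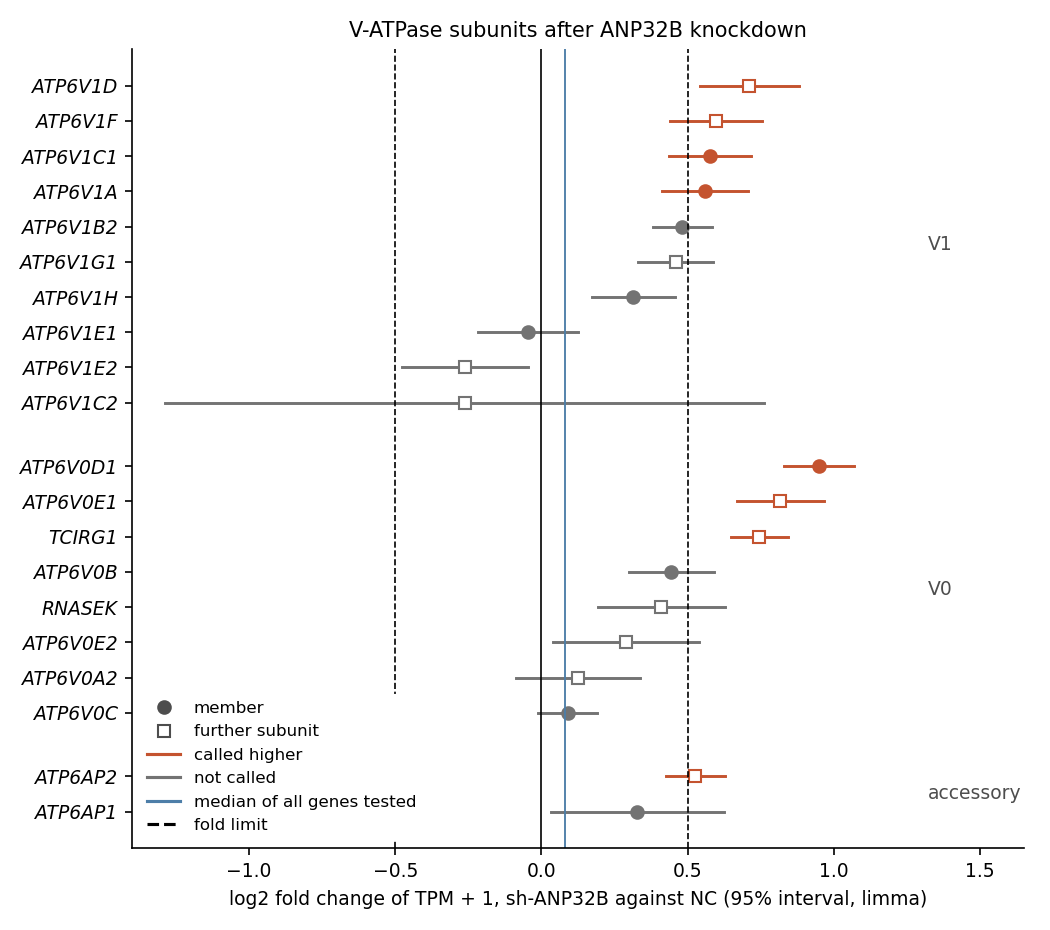
Log2 fold change of TPM + 1 with its 95% interval from limma for the 20 V-ATPase subunits with a row, grouped into V1, V0 and accessory subunits, with circles for members and squares for the further subunits. Dashed lines mark the fold limit of 0.5 and the blue line the median of all genes at 0.08. The 8 called subunits are all to the right and come from all 3 groups.

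Over all 20 subunits with a row, 8 were called higher and none lower, against 17.9% and 10.1% of all genes. With no fold limit, 13 had an adjusted p below 0.05 in the upward direction and none in the downward. Over all genes these shares were 26.0% and 19.7%. On other scalings ATP6V1E2 passed that p downward, at -0.35 (adjusted p = 0.0174) after median-of-ratios scaling and at -0.30 (adjusted p = 0.0326) after quantile normalization. The summed TPM of the 10 V1 genes was 633 and 623 in NC and 850 and 845 in sh-ANP32B, which was 135% of the NC mean. For the 8 V0 genes the sums were 1315 and 1323 TPM against 1840 and 1899 TPM, or 142%. The accessory pair summed to 213 and 240 TPM against 313 and 293 TPM, or 134%. After median-of-ratios scaling these shares were 126%, 132% and 125%.

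Where a subunit is encoded by paralogs, the main form kept its lead. TCIRG1 made up 94.9% ± 0.190 (SD, n = 2) of the summed TPM of TCIRG1 and ATP6V0A2 in NC and 96.6% ± 0.061 (SD, n = 2) in sh-ANP32B, a share that leaves out ATP6V0A1. ATP6V0E1 made up 79.7% ± 1.08 (SD, n = 2) of ATP6V0E1 and ATP6V0E2 in NC and 84.9% ± 1.04 (SD, n = 2) in sh-ANP32B. ATP6V1E1 held 81.6% and 78.1% of the E forms in NC and 81.8% and 82.8% in sh-ANP32B. ATP6V1C1 held 88.9% and 95.4% of the C forms in NC and 97.4% and 94.4% in sh-ANP32B, so the groups of the C share overlapped. These shares were not tested.

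The MiT/TFE transcription factors are known to bind CACGTG-like elements in the promoters of lysosomal genes. Promoter windows of RefSeq on GRCh38.p14 were searched over the 250 bases before the start site for CACGTG, which reads the same on both strands, and for TCATGTGA on both strands (TCACATGA), a motif that cannot cover the same bases as CACGTG. Of the 9 members, 5 had a window. ATP6V0B and ATP6V0D1 held CACGTG, as did 7.73% of the 27305 genes with a window, and ATP6V0C held TCATGTGA, as did 1.06% of them. TCATGTGA was added to the search after sequences were seen, so its match in a member could follow from that choice. ATP6V1E1 and ATP6AP1 held neither. The matches are shown in 30 bases each, on the gene's strand with the motif in capitals, because the members that hold them include the one with the largest change (ATP6V0D1) and one with little (ATP6V0C).
ATP6V0D1 (chr16:67481199-67481228, minus strand, 59 bases before the start): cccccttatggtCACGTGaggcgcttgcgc
ATP6V0B (chr1:43974891-43974920, plus strand, 57 bases before the start): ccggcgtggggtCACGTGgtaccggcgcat
ATP6V0B (chr1:43974909-43974938, plus strand, 39 bases before the start): gtaccggcgcatCACGTGggcgagttaggt
ATP6V0C (chr16:2513911-2513940, plus strand, 29 bases before the start): gcggggcccaggTCATGTGAcgcggccgcg
The last 80 bases before a start site of ATP6V1E1, the member with overlapping groups, hold no match and are given for comparison.
ATP6V1E1 (chr22:17628750-17628829, minus strand): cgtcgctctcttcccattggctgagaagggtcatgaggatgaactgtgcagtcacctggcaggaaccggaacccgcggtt
Of the further subunits, 8 had a window and 2 (ATP6V1G1 and ATP6V0E2) held CACGTG. TCIRG1, ATP6V1D, ATP6V1F and ATP6AP2 were called higher and held neither motif. A match is a description of the letters in the window.

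All 4 MiT/TFE factors had both sh-ANP32B libraries above both NC libraries, an order that 42.5% of all genes showed. Of the 4, 3 were called higher, against 17.9% of all genes. TFE3 had 16.2 and 14.7 TPM in NC and 29.1 and 31.4 TPM in sh-ANP32B (log2 fold change 0.93, adjusted p = 0.000803). TFEC had 20.7 and 19.9 TPM against 33.4 and 32.1 TPM (log2 fold change 0.66, adjusted p = 0.00118). TFEB had 23.5 and 21.3 TPM against 32.4 and 31.4 TPM, with a log2 fold change of 0.49 (adjusted p = 0.00493) just inside the limit. MITF, at 2.71 and 3.67 TPM against 5.40 and 4.96 TPM, was called at an adjusted p = 0.0494, and this call was lost under 8 of 10 alternative fits, among them the replicate block.

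Of 10 genes tested whose products assemble the pump or regulate it, 4 were called higher and 1 lower, against 17.9% and 10.1% of all genes, with a median log2 fold change of 0.35. ROGDI, DMXL2 and WDR7 belong to a complex that rejoins V1 with V0. ROGDI had 42.3 and 50.0 TPM in NC and 68.7 and 74.4 TPM in sh-ANP32B (log2 fold change 0.62, adjusted p = 0.00377), and DMXL2 had 72.9 and 74.1 TPM against 108 and 103 TPM (log2 fold change 0.52, adjusted p = 0.000722). WDR7 (0.53, adjusted p = 0.0158) and CCDC115 (0.57, adjusted p = 0.00208), an assembly factor of the endoplasmic reticulum, were the other genes called higher. VMA21, the chaperone that V0 needs for assembly, fell from 46.8 and 48.7 TPM to 31.8 and 35.1 TPM (log2 fold change -0.50, SE 0.0711, adjusted p = 0.00319), at the edge of the fold limit. Median-of-ratios scaling removed the calls of DMXL2, WDR7 and CCDC115, and without sh-ANP32B replicate 1 those of DMXL2, WDR7 and VMA21 were lost. VMA21 was also not called without NC replicate 2 (-0.47), nor WDR7 without NC replicate 1 (0.49) or after quantile normalization (0.36).

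Of 11 genes tested for lysosomal and endosomal ion channels, exchangers and associated membrane proteins, 4 were called higher and 1 lower, against 17.9% and 10.1% of all genes. CLCN6, a chloride-proton exchanger of endosomes, rose most, from 24.4 and 26.9 TPM to 54.9 and 56.5 TPM (log2 fold change 1.09, SE 0.0716, adjusted p = 0.000278). MCOLN1, the lysosomal calcium channel, had 15.0 and 16.7 TPM in NC against 25.2 and 30.3 TPM (log2 fold change 0.77, adjusted p = 0.00402). TPCN1, a cation channel of endosomes and lysosomes, and TMEM9B were called higher at 0.65 (adjusted p = 0.000856) and 0.56 (adjusted p = 0.00405). OSTM1, the partner that stabilises the lysosomal exchanger CLCN7, fell from 14.2 and 15.0 TPM to 8.44 and 10.4 TPM (log2 fold change -0.59, adjusted p = 0.0149). CLCN7 itself had 230 and 253 TPM in NC and 299 and 303 TPM in sh-ANP32B (log2 fold change 0.32, adjusted p = 0.00612), inside the fold limit, so the partners differed in sign. OSTM1 was not called without NC replicate 2 (-0.55) or without sh-ANP32B replicate 1 (-0.45), and TMEM9B was not called without sh-ANP32B replicate 1 (0.48) or after median-of-ratios scaling (0.47).

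Ragulator and the Rag GTPases, which work with the V-ATPase in nutrient sensing at the lysosome, had 3 of 12 genes called higher and none lower, with a median log2 fold change of 0.37. These counts are near the 17.9% and 10.1% of all genes. LAMTOR1, the membrane anchor of Ragulator, had 63.5 and 63.9 TPM in NC and 94.7 and 90.0 TPM in sh-ANP32B (log2 fold change 0.53, adjusted p = 0.000802). RRAGC (0.54, adjusted p = 0.00204) and RRAGB (0.58, adjusted p = 0.0303) were the others, and RRAGB lost its call under 5 of 10 alternative fits. LAMTOR3 had the lowest log2 fold change, -0.22 (adjusted p = 0.315). After median-of-ratios scaling, and also without sh-ANP32B replicate 1, 0 of the 12 were called.

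The mitochondrial F-type ATP synthase is built on the same rotary plan as the V-ATPase and runs in the direction of ATP synthesis. Of the 18 nuclear genes listed for it and tested (subunits and the inhibitor ATP5IF1), 1 was called higher and 1 lower. Over all genes these shares were 17.9% and 10.1%. The median log2 fold change of the 18 was -0.22 against 0.44 for the V-ATPase members. Of the 18, 8 had an adjusted p below 0.05 in the downward direction and 1 in the upward, against 19.7% and 26.0% of all genes. ATP5MC1, a gene of its proton-carrying ring, fell from 226 and 226 TPM to 151 and 154 TPM (log2 fold change -0.56, adjusted p = 0.000286). ATP5F1E was the subunit called higher, with 9.67 and 9.94 TPM in NC and 14.0 and 17.1 TPM in sh-ANP32B (log2 fold change 0.61, adjusted p = 0.0115), and it was not called after quantile normalization or without sh-ANP32B replicate 2. The difference between the lists of the V-ATPase and of the F-type ATP synthase was not tested.

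**Figure D3:**
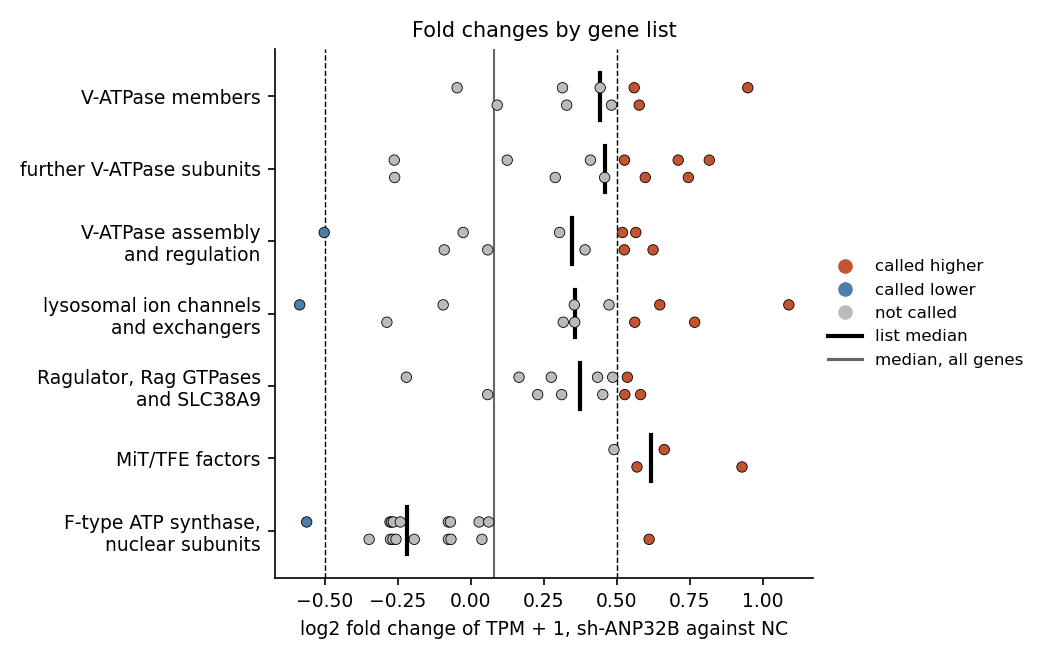
Log2 fold change of TPM + 1 for each gene tested in 7 lists, coloured by call, with a black bar at each list's median and a grey line at the median of all genes (0.08). The medians of the V-ATPase lists are at 0.44 and 0.46 and that of the F-type ATP synthase at -0.22.

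Markers of monocytes moved with these differences. Of 11 such markers, 9 had a row. Of these 9, 8 were called higher and 0 lower, against 17.9% and 10.1% of all genes. The summed TPM of the 9 was 531 and 525 in NC and 5625 and 5573 in sh-ANP32B. Most of this sum was LYZ, with 471 and 463 TPM against 5308 and 5260 TPM. CD68 had 39.9 and 40.1 TPM against 220 and 214 TPM. CD14 and VCAN were not analysed here, and CSF1R stayed under 3 TPM in every library. Of 5 osteoclast markers, CTSK alone had a row, with 2.29 and 2.17 TPM against 6.17 and 6.16 TPM. The part of these markers in the V-ATPase result was not tested. In bulk RNA, a change in the share of cells of a kind and a change of RNA within each cell cannot be told apart.

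**Figure D4:**
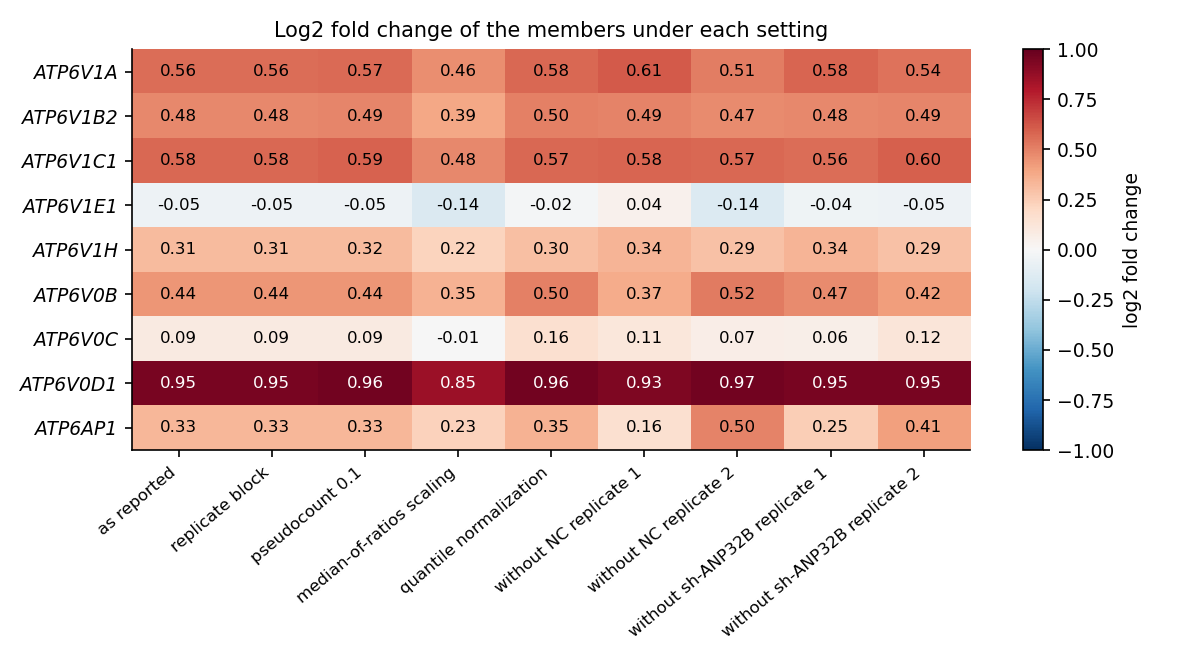
Log2 fold change of the 9 members as reported and under the replicate block, another pseudocount, both scalings and each library left out, from blue (-1) to red (1). ATP6V0D1 stays at 0.85 or above, ATP6V0C runs from -0.01 to 0.16 and ATP6V1E1 from -0.14 to 0.04, and ATP6AP1 ranges from 0.16 to 0.50.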

How the data were processed

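RNA-seq libraries of MV4-11 cells were grouped by the sample labels (NC, n = 2, and sh-ANP32B, n = 2). The authors aligned reads to hg38 with HISAT2 (v2.0.5) and deposited 1 TPM value per gene and library. The unit was read from the values, which sum to between 997271 and 998546 in each library. The tool, annotation and strand setting behind the TPM are not given in the sources used here. Count models do not apply to TPM, so limma (3.58.1, R 4.3.3) was fitted to log2(TPM + 1), with a mean-variance trend, after removing genes that reached 1 TPM in fewer than 2 libraries. Of the gene identifiers, 17290 had a symbol. Positions and exons come from GENCODE on hg38. The libraries' replicate numbers did not pair them (correlation of deviations -0.023). The members and lists were chosen with earlier results of these data known. Named genes were all members, all further subunits tested, and the called genes and extremes of each other list (at most 5 calls), and CLCN7, TFEB, ATP5F1A, ATP5MC3, other markers, overlapping genes and the TCATGTGA motif were added after their values or sequences were seen. The test was checked on data simulated with independent noise in each library, so that check does not cover effects shared by libraries of a culture. Alternatives were the replicate block, filters, pseudocount, scalings, call rules and each library left out. Python 3.11.15 was used for tables and plots.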

Additional observations from a re-analysis of the deposited data

How the results depend on the processing

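As reported, 3 members, 5 further subunits, 5 assembly and regulation genes, 5 ion channels and exchangers, 3 Ragulator and Rag genes, 3 MiT/TFE factors and 2 F-type subunits were called. Median-of-ratios scaling left 1 member, 2 assembly genes and 0 Ragulator and Rag genes called, and put the V1 sum at 126.1% and the V0 sum at 132.4% of NC. Quantile normalization called 5 members and 1 F-type subunit. Over all 16937 genes tested, 3024 were called higher and 1712 lower as reported. These counts were 2430 and 2326 after median-of-ratios scaling, and 2208 and 2230 after quantile normalization. Limma's treat test against 0.5 called 1 member, 2 further subunits, 0 assembly genes, 1 ion channel, 0 Ragulator and Rag genes, 1 MiT/TFE factor and 0 F-type subunits. Of the 16937 genes tested, the treat test called 950 higher and 481 lower. With no fold limit, 6 members, 8 ion channels, 7 Ragulator and Rag genes and 9 F-type subunits passed, and with a limit of 1 only 1 ion channel (CLCN6) in these 7 lists did, with 0 in the others. Over the 16937 genes tested, 4405 were higher and 3342 lower with no fold limit, and 1136 and 273 with a limit of 1. Leaving out 1 library gave 3 to 4 members, 2 to 5 assembly genes, 3 to 5 ion channels, 0 to 4 Ragulator and Rag genes and 1 to 2 F-type subunits, the lowest without sh-ANP32B replicate 1 for assembly genes, ion channels and Ragulator and without sh-ANP32B replicate 2 for F-type subunits. ATP6V0C was at -0.0068 (log2) after median-of-ratios scaling. With 1 library left out, ATP6V1E1 ranged from -0.137 to 0.0426, ATP6V1C2 from -0.759 to 0.234 (0.11 without sh-ANP32B replicate 1) and LAMTOR3 from -0.444 to 0.0015, with the upper value of LAMTOR3 without NC replicate 2 and those of the others without NC replicate 1. The cause of these changes was not tested. The libraries' replicate numbers did not pair them (correlation of deviations -0.0232). With the replicate block, 3 members and 5 further subunits were called, and over all genes 2853 were higher and 1671 lower. The block removed the call of MITF (adjusted p = 0.0759, limma) and changed no other call among the named genes outside the marker lists. Depth is unknown for TPM, which limits low genes such as ATP6V1C2 most.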

Other observations

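Replicates of 2 genes of the F-type ATP synthase differed widely within groups, unlike most of the V-ATPase members. ATP5F1A had 238 and 391 TPM in NC and 472 and 215 TPM in sh-ANP32B, and ATP5MC3 had 183 and 270 TPM against 135 and 249 TPM, with log2 fold changes of 0.06 (SE 0.404, adjusted p = 0.918, limma) and -0.28 (SE 0.315, adjusted p = 0.513).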
